A study of Mus musculus with 12 samples.

Results

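The 33 genes described here encode the receptor PPARA, the enzymes and carriers of fatty acid oxidation and ketone body metabolism, and other genes known as targets of PPARA. They were taken by gene symbol from a named list, with no cut on their values, and all 33 were among the 24062 genes of the count tables. That list was chosen with earlier results of these data known. By the usual place of their products, 18 are mitochondrial, 7 peroxisomal and 3 microsomal, and the other 5 are the receptor Ppara, Acsl1, Fabp1, Angptl4 and Vnn1. Poly(A) RNA was sequenced from liver and gastrocnemius, a calf muscle, of 6 female C57BL/6N mice fed chow. Of these mice, 3 were homozygous for the Mars2 variant R135W (animals 5, 7 and 12, at 9.0, 7.4 and 8.6 weeks of age) and 3 were wild type (WT; animals 6, 8 and 9, at 9.0, 9.0 and 7.4 weeks). That gives 4 groups of 3 libraries: R135W liver, WT liver, R135W gastrocnemius and WT gastrocnemius. Mars2 encodes mitochondrial methionyl-tRNA synthetase, and the labels give no treatment. The time of day and the feeding state at sampling are not given in the sources used here, and both are known to move genes of this pathway.

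Fatty acids are activated to acyl-CoA esters, carried into mitochondria as carnitine esters and shortened there by beta-oxidation, which hands electrons to the respiratory chain and, in liver, feeds ketone body synthesis. Peroxisomes shorten very long and branched chains, and microsomal P450 enzymes of the Cyp4a family oxidise fatty acids at the omega end. PPARA, a nuclear receptor that binds fatty acids, pairs with RXR on direct repeats of the hexamer AGGTCA and turns on many genes of all 3 routes, most strongly in fasted liver.

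RefSeq promoter windows (GRCm38.p6, the mm10 assembly), each with 250 bases before and 50 after the start site, were matched by symbol for 24 of the 33 genes, in 26 windows. The 4 windows below belong to the receptor gene, to a target carrying a receptor-type repeat, and to a pair of similar thiolase genes. Both thiolase genes lie on chromosome 9, and their tissue levels differ. Capitals mark, on either strand, the direct repeat AGGNCANAGGNCA, the hexamer AGGTCA and the CCAAT box.
Ppara, chr15:85735526-85735825, plus strand: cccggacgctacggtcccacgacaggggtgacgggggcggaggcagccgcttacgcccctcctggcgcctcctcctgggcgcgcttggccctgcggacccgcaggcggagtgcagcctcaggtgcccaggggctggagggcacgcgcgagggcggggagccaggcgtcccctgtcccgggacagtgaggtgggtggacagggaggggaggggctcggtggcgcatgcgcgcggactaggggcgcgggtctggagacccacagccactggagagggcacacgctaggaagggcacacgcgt
Fabp1, chr6:71199629-71199928, plus strand: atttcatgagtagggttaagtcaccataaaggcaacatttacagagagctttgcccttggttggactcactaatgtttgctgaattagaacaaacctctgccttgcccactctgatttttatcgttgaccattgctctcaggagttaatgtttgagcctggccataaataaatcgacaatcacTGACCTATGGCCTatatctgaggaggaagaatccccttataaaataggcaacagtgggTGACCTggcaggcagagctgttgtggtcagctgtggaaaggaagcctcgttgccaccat
Acaa1b, chr9:119157044-119157343, minus strand: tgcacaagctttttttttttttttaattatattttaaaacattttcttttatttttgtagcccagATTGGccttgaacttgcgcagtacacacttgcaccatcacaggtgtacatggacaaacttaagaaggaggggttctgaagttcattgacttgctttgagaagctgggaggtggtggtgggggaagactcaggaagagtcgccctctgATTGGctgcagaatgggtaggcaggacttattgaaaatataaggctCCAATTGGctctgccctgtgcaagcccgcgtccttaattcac
Acaa1a, chr9:119341044-119341343, plus strand: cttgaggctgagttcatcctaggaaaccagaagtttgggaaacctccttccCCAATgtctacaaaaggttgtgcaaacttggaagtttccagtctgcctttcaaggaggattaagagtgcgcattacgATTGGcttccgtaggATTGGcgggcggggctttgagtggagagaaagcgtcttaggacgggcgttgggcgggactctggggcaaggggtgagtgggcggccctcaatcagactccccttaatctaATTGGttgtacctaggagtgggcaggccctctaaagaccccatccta
The direct repeat was in 0.381% of 32851 windows of this length and, among the matched genes, only in that of Fabp1, from -67 to -55 on the reverse strand with the start site counted as 0. The hexamer, which overlaps the repeat at -67, was in 16.3% of all windows and in the windows of Acadm, Acadvl, Cpt1a and Fabp1. The CCAAT box was in 37.4% of all windows and in 10 of the 26, those of Acaa1a, Acaa1b, Acsl1, Cpt1a, Eci2, Ehhadh, Etfa, Etfb, Etfdh and Hadh. The site TTANGTAA of the clock output factors DBP, TEF and HLF was in 2.32% of all windows and in 0 of the 26. These matches describe letters in a window and say nothing of binding.

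Libraries held 20751583 to 30460237 counts. Hepatocyte markers summed to 84317 to 90472 CPM (counts scaled to a common library size) in R135W liver and 102107 to 104282 CPM in WT liver, with 6 of 7 tested markers at a fold change below 0. Of these 7, edgeR called 0 (1 was lower at an unadjusted p under 0.05), DESeq2 called 1 lower (Serpina1a) and limma-voom called 0. Macrophage markers summed to 641 to 716 CPM in R135W liver and 226 to 370 CPM in WT liver, with 8 of 8 called higher by edgeR and DESeq2 and 7 by limma-voom. Of these 8, Clec4f and Timd4 lost their calls without any 1 of the 6 livers, and Cd5l, Cd68, Emr1 and Marco kept theirs each time. In bulk tissue, fewer cells of a type and less RNA per cell cannot be told apart, and the part of these markers in the results below was not tested. Muscle markers summed to 138789 to 170752 CPM in R135W gastrocnemius and 129659 to 149845 CPM in WT gastrocnemius, where hepatocyte markers reached 43.4 CPM in R135W and 8.01 CPM in WT. Adipocyte markers summed to 211 to 245 CPM in R135W gastrocnemius and 222 to 236 CPM in WT. Fabp4 weighed most in these sums, at a mean of 123 CPM in R135W and 117 CPM in WT. The median log2 fold change of the 8 adipocyte markers there was -0.31, with 5 below 0 and 3 above. Of these 8, edgeR called 0 (2 were lower at an unadjusted p under 0.05), limma-voom 0 and DESeq2 1 (Cidec, lower). Mars2 itself had 2.65, 2.47 and 3.67 CPM in R135W liver and 2.30, 2.54 and 3.48 CPM in WT liver. In gastrocnemius it had 10.5, 9.28 and 8.59 CPM in R135W and 12.6, 10.7 and 11.9 CPM in WT, and it was called in neither tissue. A missense variant need not change the count of its transcript, so this does not check the labels.

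In liver, the oxidation genes lay low in R135W as a group, though few single genes passed. Of the 33 genes 31 had a fold change below 0 (50.7% of all genes did), their median log2 fold change was -0.43 (a median change of -25.8%), and that of all 13935 tested genes was -0.01. Ppara was the only member called at an adjusted p under 0.05 by edgeR's quasi-likelihood test with Benjamini-Hochberg adjustment. Over all tested genes 0.524% were called lower, 2.76% higher and 3.28% in either direction. At an unadjusted p under 0.05, 18 members were lower and 0 higher, against 6.75% of all genes lower and 10.8% higher. In 18 members every R135W library lay below every WT library, against 9.98% of all genes. All members passed the filter on low counts in liver. The list was chosen with earlier results of these data known, so these shares are not independent of the data.

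**Figure D1:**
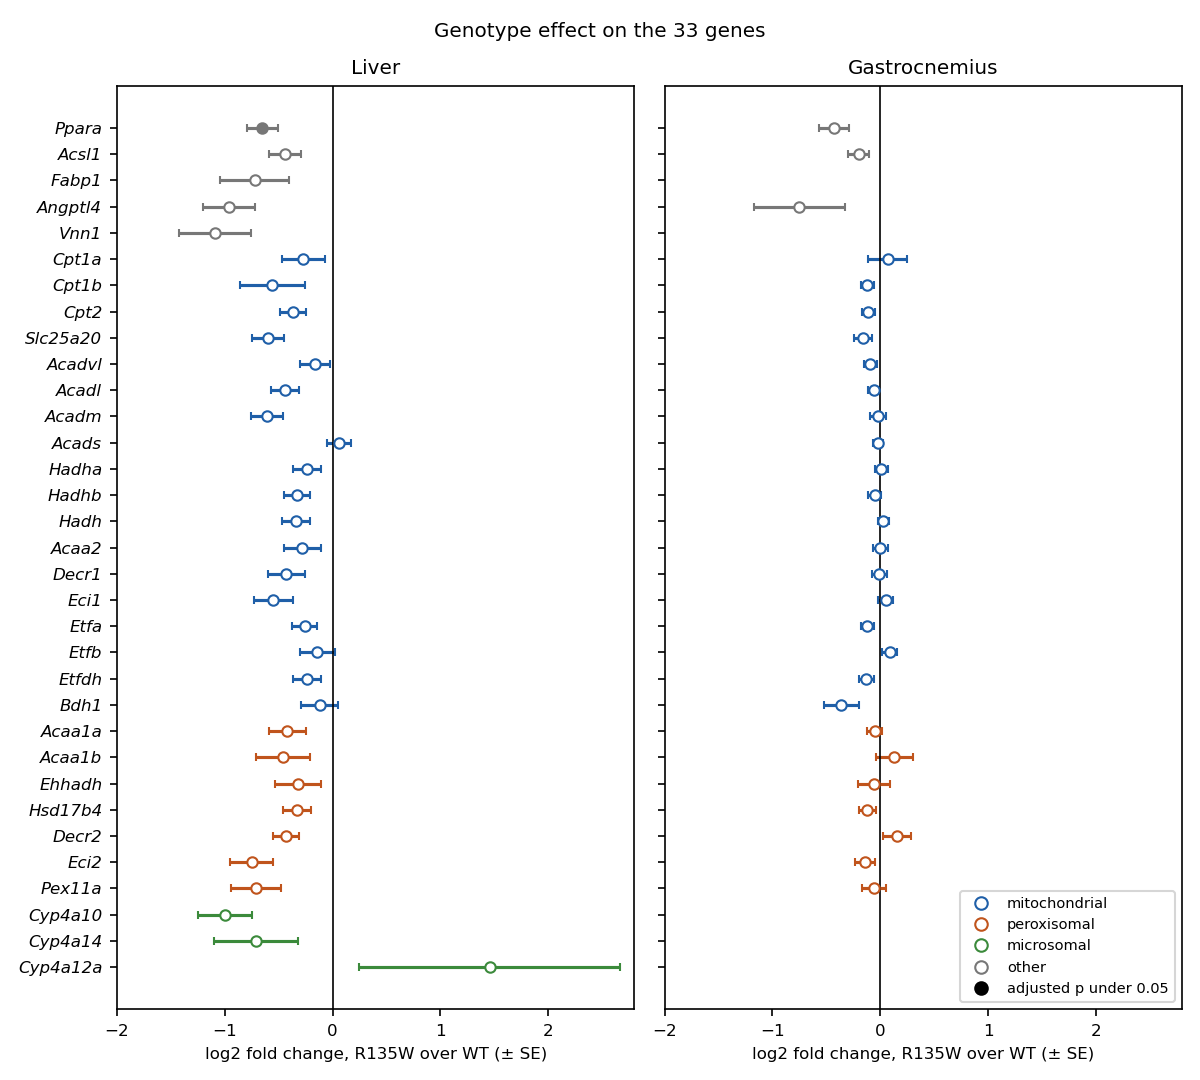
Log2 fold change of R135W over WT with its SE for each of the 33 genes in liver (left) and gastrocnemius (right), coloured by the place of the product; the filled point, Ppara in liver, passed an adjusted p of 0.05. In liver 31 of 33 points lie left of 0 with a median of -0.43, and in gastrocnemius 28 genes were tested, with a median of -0.06.

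The receptor came first among the members by its p-value. Ppara had 189, 229 and 223 CPM in R135W livers 5, 7 and 12, against 302, 329 and 374 CPM in WT livers 6, 8 and 9. The groups did not overlap, and the highest R135W liver was well under the lowest WT liver. Ppara fell (log2 fold change -0.65, SE 0.14, adjusted p = 0.0437, edgeR). The call is close to the threshold: without any 1 of the 6 libraries (R135W 5, 7 or 12, WT 6, 8 or 9) the adjusted p was 0.0533 to 0.162, and with age as a covariate it was 0.0524, while the log2 fold change stayed between -0.72 and -0.56.

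Of the carnitine shuttle, Slc25a20, the inner membrane carrier that exchanges acylcarnitine for carnitine, differed most clearly. Slc25a20 had 95.3, 108 and 86.6 CPM in R135W livers and 173, 123 and 143 CPM in WT livers (log2 fold change -0.60, SE 0.15, adjusted p = 0.0787, edgeR). The groups did not overlap, and R135W 7 and WT 8 came nearest to each other. Cpt2, which turns acylcarnitine back into acyl-CoA in the matrix, had 144, 141 and 138 CPM in R135W livers and 191, 163 and 191 CPM in WT livers (log2 fold change -0.37, SE 0.12, adjusted p = 0.145, edgeR). Cpt1a, the rate-limiting liver form of the outer membrane transferase, had 226, 288 and 378 CPM in R135W livers and 310, 355 and 414 CPM in WT livers. Its groups overlapped, since R135W 12 lay above WT 6 and WT 8, and the log2 fold change was -0.27 (SE 0.20). Cpt1b, the muscle form, was low in liver, at 6.66 to 11.5 CPM in R135W and 9.94 to 20.3 CPM in WT. Cpt1b shares 94.8% of its exon bases with the annotated readthrough gene ChkbCpt1b, and a fragment there was counted for both.

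The acyl-CoA dehydrogenases start each round of beta-oxidation, each on chains of another length, and 2 of the 4 had livers fully apart. Acadm, the medium-chain enzyme, had 240, 273 and 276 CPM in R135W livers and 474, 365 and 364 CPM in WT livers (log2 fold change -0.61, SE 0.15, adjusted p = 0.0715, edgeR). Acadl, the long-chain enzyme, had 189, 195 and 205 CPM in R135W livers and 297, 256 and 244 CPM in WT livers (log2 fold change -0.44, SE 0.13). For both genes every R135W liver was below every WT liver. Acads, the short-chain enzyme, had 172, 170 and 159 CPM in R135W livers and 152, 158 and 173 CPM in WT livers, with a log2 fold change of 0.06 (SE 0.11). Acadvl, the very-long-chain enzyme, also overlapped, at 436, 438 and 405 CPM in R135W livers and 530, 418 and 479 CPM in WT livers. The differences among these 4 enzymes were not tested.

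The later steps of the mitochondrial spiral had a median log2 fold change of -0.31, beside -0.30 for the 4 acyl-CoA dehydrogenases. Hadha and Hadhb, the subunits of the trifunctional protein, Hadh, the short-chain hydroxyacyl-CoA dehydrogenase, and Acaa2, the thiolase, had log2 fold changes from -0.34 (Hadh) to -0.24 (Hadha). Hadh had 325, 342 and 308 CPM in R135W livers and 377, 433 and 426 CPM in WT livers, fully apart. Hadhb was fully apart as well, at 147 to 155 CPM in R135W livers and 169 to 211 CPM in WT livers, and Hadha only just, at 294 to 330 CPM in R135W livers and 332 to 398 CPM in WT livers. Acaa2 overlapped, at 750 to 895 CPM in R135W livers and 837 to 1182 CPM in WT livers. The auxiliary enzymes for unsaturated chains had more negative fold changes. Eci1, an enoyl-CoA isomerase, had 129, 134 and 104 CPM in R135W livers and 223, 140 and 176 CPM in WT livers (log2 fold change -0.55, SE 0.18, adjusted p = 0.164, edgeR). Decr1, a dienoyl-CoA reductase, had 148, 176 and 129 CPM in R135W livers and 245, 179 and 187 CPM in WT livers (log2 fold change -0.43, SE 0.17). In both genes the groups stayed apart, but WT 8 was close to R135W 7. Etfa, Etfb and Etfdh, which pass electrons from the dehydrogenases to ubiquinone, had log2 fold changes of -0.26, -0.14 and -0.24, and only Etfa was fully apart, at 347 to 372 CPM in R135W livers and 421 to 454 CPM in WT livers. Bdh1, which converts between the ketone bodies acetoacetate and beta-hydroxybutyrate, had 278, 315 and 243 CPM in R135W livers and 362, 257 and 287 CPM in WT livers. Over the 18 mitochondrial members the median log2 fold change was -0.31, 17 were below 0, 8 had an unadjusted p under 0.05 and 10 were fully apart. Of all tested genes in liver, 50.7% were below 0, 6.75% were lower at that p and 9.98% were fully apart and lower.

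The peroxisomal members all had fold changes below 0. Eci2, the peroxisomal enoyl-CoA isomerase, had 169, 202 and 167 CPM in R135W livers and 372, 213 and 322 CPM in WT livers (log2 fold change -0.75, SE 0.20, adjusted p = 0.0965, edgeR). Decr2, the peroxisomal dienoyl-CoA reductase, had 197, 208 and 192 CPM in R135W livers and 255, 261 and 289 CPM in WT livers (log2 fold change -0.43, SE 0.12, adjusted p = 0.0980, edgeR). Decr2 was the tighter of the pair, with every group within a narrow band, whereas WT 8 nearly met R135W 7 for Eci2. Without WT 8 Eci2 passed, at an adjusted p of 0.0462. Pex11a, a membrane protein of peroxisome division, had 24.5, 29.9 and 42.2 CPM in R135W livers and 60.4, 39.1 and 58.2 CPM in WT livers (log2 fold change -0.71, SE 0.23). R135W 12 lay above WT 8 for this gene. Ehhadh, the bifunctional enzyme of the straight-chain route, had 409, 316 and 503 CPM in R135W livers and 632, 443 and 460 CPM in WT livers. Hsd17b4, its counterpart for branched chains, had 318, 337 and 295 CPM in R135W livers and 420, 358 and 420 CPM in WT livers, fully apart.

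The peroxisomal thiolase genes Acaa1a and Acaa1b are a similar pair on chromosome 9. Reads may have been split between them by the aligner, so each level is uncertain. Acaa1b had 1213, 1074 and 691 CPM in R135W livers and 1787, 1085 and 1237 CPM in WT livers, and Acaa1a had 233, 250 and 177 CPM in R135W livers and 323, 242 and 315 CPM in WT livers. Both overlapped between genotypes, with log2 fold changes of -0.46 (SE 0.25) and -0.42 (SE 0.17). Per exon length, Acaa1b made up 80.4 to 84.6% of the pair in R135W livers and 80.5 to 85.4% in WT livers. Over the 7 peroxisomal members the median was -0.43, with 5 at an unadjusted p under 0.05 and 3 fully apart. The shares of all tested genes in liver were 6.75% lower at that p and 9.98% fully apart and lower.

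The microsomal members had the widest range. Cyp4a10, a fatty acid omega-hydroxylase, had 339, 505 and 500 CPM in R135W livers and 1204, 651 and 841 CPM in WT livers. The groups did not overlap, and the log2 fold change was -1.0 (SE 0.25, adjusted p = 0.0727, edgeR). Cyp4a14, its neighbour on chromosome 4, had 631, 927 and 1199 CPM in R135W livers and 2491, 818 and 1188 CPM in WT livers (log2 fold change -0.71, SE 0.39). Here WT 6 alone stood above the R135W livers. Cyp4a12a, a form known for its high level in male mouse liver, had 0.454, 7.46 and 0.244 CPM in R135W livers and 0.527, 0.149 and 2.06 CPM in WT livers. Its log2 fold change of 1.46 (SE 1.21) rested on R135W 7, without which it was -1.45. Cyp4a genes are close copies of each other, so their counts are uncertain too. The median log2 fold change of the 10 peroxisomal and microsomal members was -0.45, beside -0.31 for the 18 mitochondrial members, and this difference was not tested. Without WT 6 these medians were -0.32 and -0.24.

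**Figure D2:**
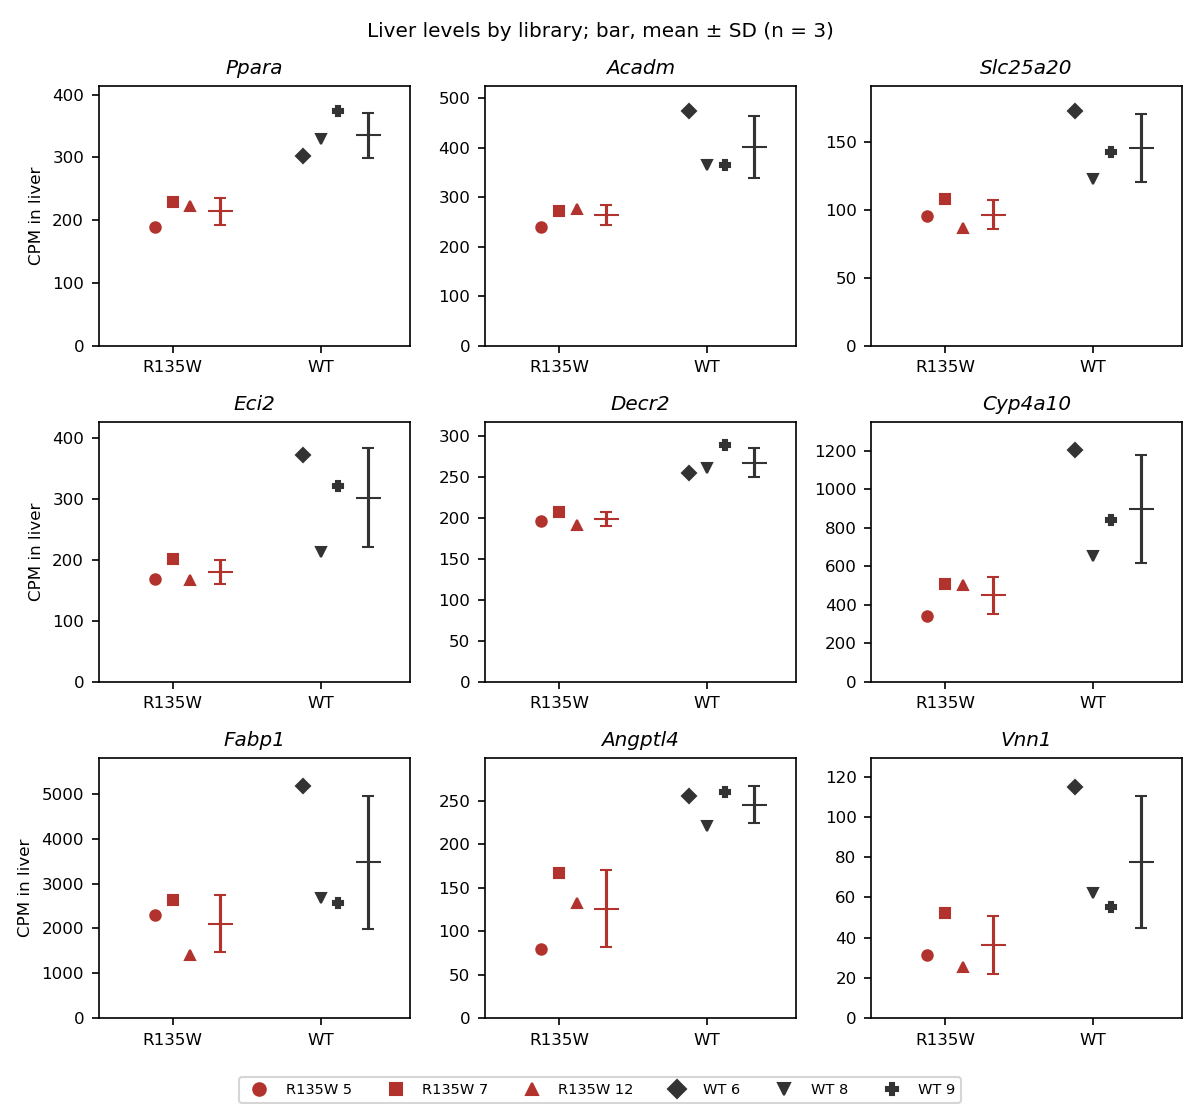
CPM in each liver library for 9 of the genes, R135W left and WT right, one symbol per animal, with the mean and SD (n = 3) beside the points. Ppara has 189 to 229 CPM in R135W and 302 to 374 CPM in WT, whereas for Fabp1 the livers of WT 8 and WT 9 lie close to that of R135W 7 and WT 6 is alone at 5174 CPM.

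The remaining members act in activation, transport or outside the cell. Vnn1, a surface pantetheinase, had 31.2, 52.5 and 25.5 CPM in R135W livers and 115, 62.3 and 55.3 CPM in WT livers (log2 fold change -1.09, SE 0.33, adjusted p = 0.132, edgeR). Angptl4, a secreted inhibitor of lipoprotein lipase, had 79.2, 167 and 132 CPM in R135W livers and 256, 221 and 260 CPM in WT livers (log2 fold change -0.96, SE 0.24, adjusted p = 0.0761, edgeR). Both were fully apart, Angptl4 by the wider margin. Acsl1, which makes acyl-CoA from long-chain fatty acids, had 678, 788 and 699 CPM in R135W livers and 1096, 886 and 951 CPM in WT livers (log2 fold change -0.44, SE 0.15). Fabp1, the liver fatty acid binding protein whose promoter holds the direct repeat printed above, had 2289, 2627 and 1404 CPM in R135W livers and 5174, 2679 and 2557 CPM in WT livers. Its log2 fold change was -0.72 (SE 0.32), but R135W 7 lay above WT 9.

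The count of members called moved with the method more than their fold changes did. DESeq2 called 11 lower (Acadl, Acadm, Acsl1, Angptl4, Cyp4a10, Decr2, Eci2, Pex11a, Ppara, Slc25a20 and Vnn1), limma-voom only Ppara, and edgeR on all 12 libraries 12, among them Cpt2, Eci1 and Hadh. Over all genes 1.75% were called lower by DESeq2, 0.445% by limma-voom and 1.91% by edgeR on all 12 libraries. The 12-library fit estimates the replicate spread of a gene from both tissues together, and replicates differed more in liver than in muscle. With age as a covariate 0 members were called by edgeR (0.222% of all genes were called lower), and 18 were lower at an unadjusted p under 0.05, against 5.71% of all genes.

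Animals differed within a genotype, and WT 6 stood apart. WT 6 had the highest level of the 6 livers for 24 of the 33 members (72.7%), against 19.3% of all tested genes. The median deviation of the members from the WT mean on the log2 scale was -0.42, -0.31 and -0.43 in R135W livers 5, 7 and 12, against 0.17, -0.18 and 0.01 in WT livers 6, 8 and 9. All 3 R135W livers were thus below WT 8, the lowest WT liver. Without WT 6, 30 of 33 members had a fold change below 0, 14 had an unadjusted p under 0.05 (7.59% of all genes were lower at that p), the median was -0.32 and 0 were called by edgeR (0.547% of all genes were called lower). Without R135W 5 the count at an unadjusted p under 0.05 was 12, against 4.27% of all genes.

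Clock genes also differed among these livers. Dbp, a rhythmic transcription factor, had 12.6, 19.9 and 6.05 CPM in R135W livers and 19.4, 61.7 and 91.3 CPM in WT livers. Tef, a relative of Dbp, had 80.3, 88.9 and 66.2 CPM in R135W livers and 128, 188 and 218 CPM in WT livers, and fell (log2 fold change -1.18, SE 0.20, adjusted p = 0.0210, edgeR). Nr1d1, a rhythmic repressor, had 112, 177 and 63.9 CPM in R135W livers and 164, 207 and 182 CPM in WT livers. WT 6 was the lowest WT liver for all 3 genes while it was the highest for most members. The list of 12 clock genes mixes output genes with core clock genes, among them Arntl and Npas2. Of these 12, edgeR called Hlf and Tef lower and Arntl and Npas2 higher, and the median of this mixed list was -0.78. DESeq2 called 5 lower and 2 higher, and limma-voom 2 lower (Hlf and Tef) and 1 higher (Arntl). Npas2 lost its call without any 1 of the 6 livers (adjusted p = 0.0549 to 0.111, edgeR) and Tef without any but WT 6 (0.0140 to 0.0833), while Hlf kept it in 2 and Arntl in 4 of the 6 fits. Their part in the levels of the oxidation genes was not tested.

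**Figure D3:**
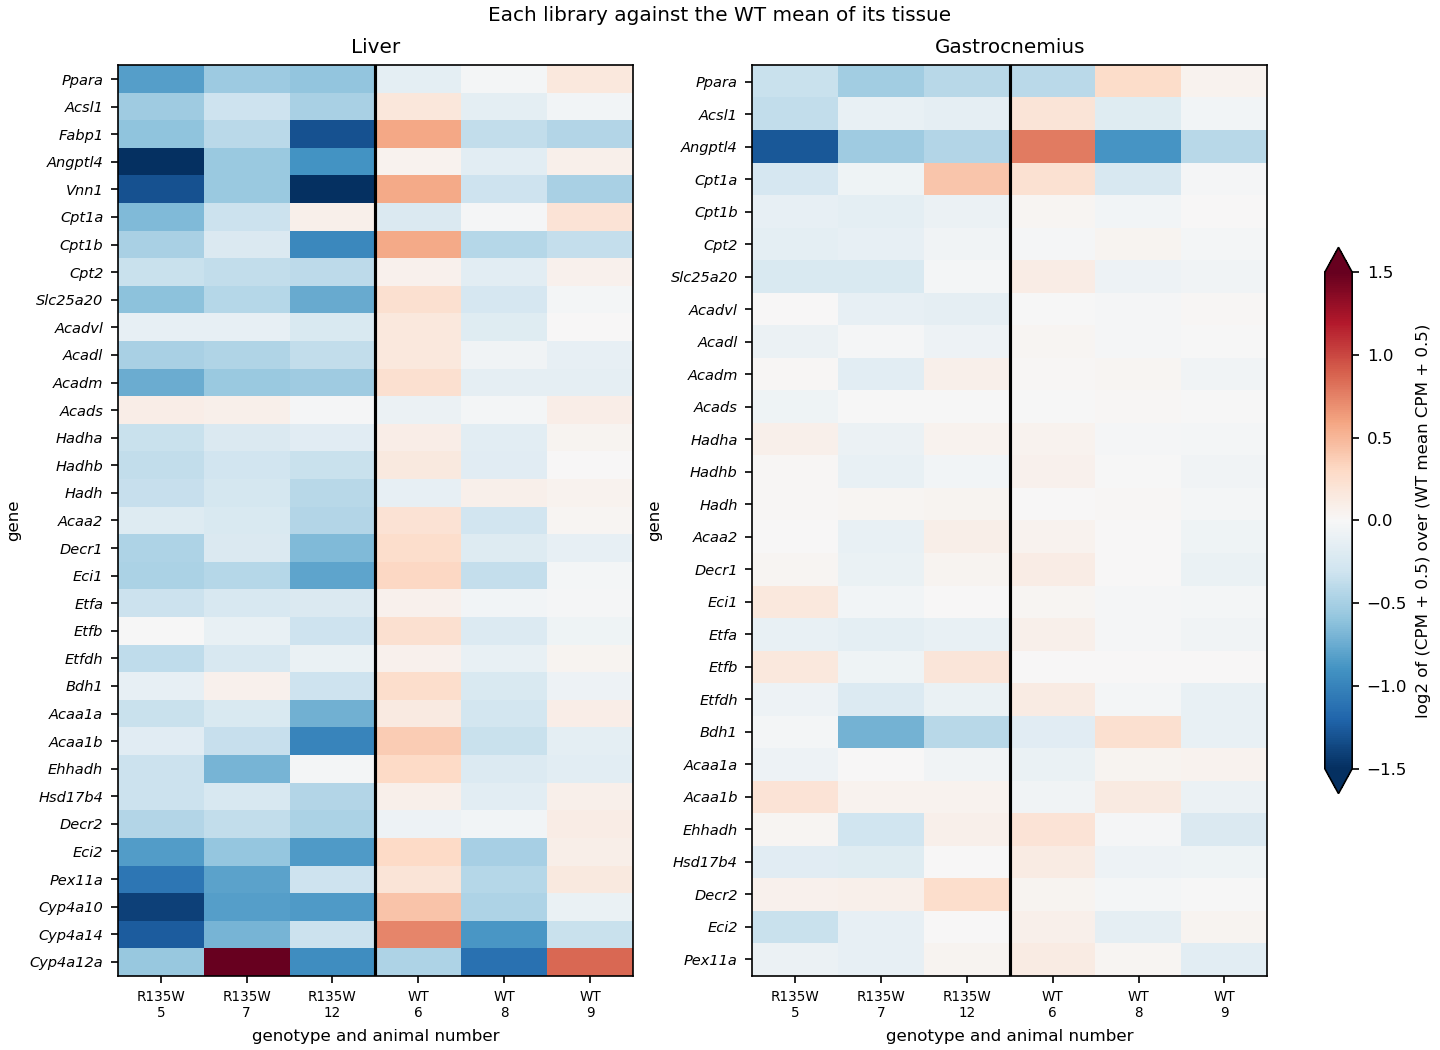
Log2 of CPM + 0.5 in each library over the WT mean CPM + 0.5 of the same tissue, genes in rows and animals in columns, R135W left of the line and WT right of it; blue is below the WT mean and red above. In liver the R135W columns are mostly blue and WT 6 mostly red. Measured from the WT mean of the log2 values, not from the mean CPM drawn here, the liver medians were -0.43 to -0.31 in R135W and 0.17 in WT 6. Gastrocnemius, with 28 genes, is paler for most genes, with Angptl4 an exception (2.46 CPM in R135W 5 and 11.7 CPM in WT 6).

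Genes of the same routes that are not members were lower in part. Slc22a5, the plasma membrane carnitine transporter, had 19.9, 23.3 and 26.3 CPM in R135W livers and 60.2, 39.1 and 47.5 CPM in WT livers, and fell (log2 fold change -1.08, SE 0.18, adjusted p = 0.0182, edgeR). Slc22a5 lost its call without R135W 5, R135W 7 or WT 9 (adjusted p up to 0.0684, edgeR). Over the 14 non-member mitochondrial oxidation and ketone genes, Slc22a5 included, the median was -0.17, with 12 below 0. None of the 31 other peroxisomal genes was called by edgeR or limma-voom and 3 were called lower by DESeq2. By edgeR 7 were lower and 0 higher at an unadjusted p under 0.05, and the median was -0.17.

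Not every related gene was lower. Of 13 other omega oxidation genes, Aldh3a2, the fatty aldehyde dehydrogenase, fell (log2 fold change -0.65, SE 0.13, adjusted p = 0.0340, edgeR) and Cyp4f16 rose (1.06, SE 0.17, adjusted p = 0.0166), with a median of -0.14. Among 17 tested of 18 other PPARA target genes, Hsdl2, a peroxisomal dehydrogenase-like protein, fell (-0.68, SE 0.15, adjusted p = 0.0412) and Lpl, lipoprotein lipase, rose (2.13, SE 0.43, adjusted p = 0.0344), with 15 below 0 and a median of -0.45. Aldh3a2 and Hsdl2 lost their calls without any 1 of the 6 livers (adjusted p = 0.0635 to 0.137, edgeR) and with age as a covariate. Cyp4f16 kept its call in 4 of these 6 fits and Lpl in 2, and Lpl was not called by limma-voom or with age. Lpl had 24.9, 37.3 and 87.2 CPM in R135W livers and 14.6, 9.00 and 10.7 CPM in WT livers. Lpl is also expressed by macrophages, whose markers were higher in the same livers, and whether the 2 are linked was not tested. Fgf21, a fasting hormone, had 16.6, 4.50 and 3.36 CPM in R135W livers and 28.1, 2.63 and 2.51 CPM in WT livers, so its high value in WT sat in animal 6 alone. Plin2, a lipid droplet coat protein, had 472, 438 and 365 CPM in R135W livers and 737, 346 and 429 CPM in WT livers. Cd36, a fatty acid transporter, had 59.3, 60.5 and 81.9 CPM in R135W livers and 64.9, 98.1 and 41.9 CPM in WT livers. Of 14 tested uptake and activation genes 0 were called by edgeR or limma-voom and 2 by DESeq2 (Fabp5 higher, Slc27a2 lower). By edgeR 3 were lower and 1 higher at an unadjusted p under 0.05, and Fabp5, an epidermal-type binding protein, had a log2 fold change of 0.69 (adjusted p = 0.0546). Of 20 receptor partners and coregulators 0 were called by edgeR, DESeq2 or limma-voom, 2 were lower and 3 higher at an unadjusted p under 0.05, and the median was -0.08. Of 14 fed and fasted state genes 0 were called by any of these 3 tools, 2 were higher at an unadjusted p under 0.05, and the median was 0.14.

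In gastrocnemius the median fold change of the members was close to 0. Of the 33 genes 28 were tested, and Cyp4a10, Cyp4a14, Cyp4a12a, Fabp1 and Vnn1 did not pass the filter on low counts, with at most 19 counts summed over either group. No member was called by edgeR, DESeq2 or limma-voom, and 1 (Ppara) had an unadjusted p under 0.05 by edgeR. Over all 13826 tested genes 0.875% were called in either direction by edgeR, 1.98% by DESeq2 and 0.694% by limma-voom, and 4.91% were lower at an unadjusted p under 0.05. The median log2 fold change of the 28 was -0.06, with 21 below 0 (50.1% of all genes were). It was -0.03 for the mitochondrial and -0.06 for the peroxisomal members. In 4 members (Acadl, Cpt1b, Cpt2 and Etfa) every R135W library was below every WT library, against 8.40% of all genes, and in 1 (Decr2) every R135W library was above, against 8.24%.

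Ppara had 38.5, 33.5 and 36.2 CPM in R135W muscles and 36.5, 58.7 and 50.4 CPM in WT muscles. R135W 5 lay above WT 6, so the groups overlapped, and the log2 fold change was -0.43 (SE 0.14, adjusted p = 0.287, edgeR). Without WT 6 it was -0.60 and passed, at an adjusted p of 0.0467. Cpt1b, the form that muscle uses, had 296, 291 and 304 CPM in R135W muscles and 329, 313 and 324 CPM in WT muscles, apart by a small margin (log2 fold change -0.12, SE 0.06, adjusted p = 0.465, edgeR). Angptl4 had 2.46, 4.44 and 4.74 CPM in R135W muscles and 11.7, 3.37 and 4.83 CPM in WT muscles (log2 fold change -0.75, SE 0.42). WT 6 again carried the high value, as it did for 13 of the 28 members (46.4%, against 18.1% of all tested genes). Bdh1 had 45.9, 28.5 and 35.1 CPM in R135W muscles and 41.7, 55.6 and 43.4 CPM in WT muscles (log2 fold change -0.36, SE 0.16, adjusted p = 0.437, edgeR). Of the peroxisomal members, Ehhadh had 6.36 to 8.41 CPM in R135W muscles and 6.80 to 9.23 CPM in WT muscles, and Eci2 had 53.3 to 67.1 CPM in R135W muscles and 61.3 to 71.0 CPM in WT muscles. Both overlapped, as did Pex11a, Hsd17b4, Acaa1a and Acaa1b, and the log2 fold changes of these 6 genes lay between -0.14 (Eci2) and 0.13 (Acaa1b). Acsl1 had 287, 343 and 338 CPM in R135W muscles and 423, 326 and 361 CPM in WT muscles, an overlap (log2 fold change -0.20, SE 0.10).

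Precision in muscle was higher than in liver for the well expressed members. The log2 fold change of Acads was -0.02 (SE 0.05), that of Acadm -0.02 (SE 0.07), that of Hadh 0.03 (SE 0.05) and that of Hadha 0.01 (SE 0.06). Slow or oxidative fibre markers summed to 5042 to 5876 CPM in R135W muscles and 5395 to 5982 CPM in WT muscles, with a median log2 fold change of -0.27, 7 of 8 below 0 and 0 called by edgeR (5 lower at an unadjusted p under 0.05) or limma-voom and 1 by DESeq2 (Tnnc1, lower). Pdk4, the kinase that shuts off pyruvate dehydrogenase when fat is burned, had 269, 562 and 818 CPM in R135W muscles and 1703, 821 and 976 CPM in WT muscles. R135W 12 and WT 8 nearly met, and the log2 fold change was -1.09 (SE 0.37, adjusted p = 0.287, edgeR). Fabp5 rose in muscle (log2 fold change 0.74, SE 0.12, adjusted p = 0.0306, edgeR), at 6.74, 7.43 and 6.26 CPM in R135W and 4.23, 3.90 and 4.11 CPM in WT. Among fed and fasted state genes Pck1, of gluconeogenesis, fell by 0.96 and Scd1, a desaturase, fell by 0.72 on the log2 scale (adjusted p = 0.0280 and 0.0430, edgeR). Without 1 muscle library at a time Fabp5 kept its call in 1 of 6 fits (adjusted p = 0.0476 to 0.155, edgeR), Pck1 in 2 (0.0451 to 0.0833) and Scd1 in 0 (0.0662 to 0.141), and none of the 3 was called in the fit of all 12 libraries. Of the other lists, 0 of 14 mitochondrial, 0 of 29 peroxisomal, 0 of 8 omega oxidation and 0 of 14 PPARA target genes were called by edgeR or limma-voom, and DESeq2 called 1 of these, Cidec, lower. At an unadjusted p under 0.05, 4, 1, 0 and 3 of them were lower and 0, 0, 0 and 1 higher.

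The difference between the tissues was tested as the genotype effect in liver minus that in gastrocnemius, over the 28 members with enough counts in muscle. None was called by edgeR or limma-voom, against 0.130% of all 15414 genes by edgeR and 0.0454% by limma-voom. DESeq2 called 4 in the negative direction (Acadl, Acadm, Decr2 and Hadh), against 0.506% of all genes. At an unadjusted p under 0.05, 10 of the 28 had a more negative effect in liver and 0 a less negative one, against 4.59% of all genes in the negative and 5.36% in the positive direction. Of the 28 differences 26 were below 0, as were 51.9% of all, and their median was -0.29. Decr2 had the smallest p: its difference was -0.60 (SE 0.14, adjusted p = 0.146, edgeR). In muscle Decr2 had 3.70, 3.73 and 4.33 CPM in R135W and 3.62, 3.44 and 3.50 CPM in WT. Every R135W muscle was above every WT muscle, opposite to liver, though R135W 5 was only just above WT 6. The muscle log2 fold change of 0.16 was not called (adjusted p = 0.702, edgeR). Acadm had a difference of -0.60 (SE 0.17, adjusted p = 0.239, edgeR). For Ppara the difference was -0.23 (SE 0.21), so its effect was not shown to differ between the tissues. Both tissues were read as coming from the same animals. The count of 10 was 4 without animal 9 and 6 without animal 6 or animal 12. The shares of all genes in these fits were 3.89%, 5.23% and 4.30%.

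The WT tissues give the baseline against which these effects sit. Between WT liver and WT gastrocnemius 28 members were higher in liver and 2 (Cpt1b and Hadhb) lower, by edgeR. With 82.1% of all genes called, 40.9% higher and 41.2% lower, a call as such says little. The median log2 fold change of liver over gastrocnemius was 0.83 for the 18 mitochondrial members and 2.65 for the 7 peroxisomal members, and it was -0.00 for all genes. Scaling between 2 tissues that share so few equal genes is an assumption, and RLE size factors in place of TMM left all of these directions as they were.

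Of the 18 mitochondrial members 14 were called higher in WT liver and 2 lower. Per exon length, as RPKM (CPM per kilobase of exon) with mean ± SD and n = 3, Acadl had 134 ± 13.5 in WT liver and 120 ± 2.07 in WT muscle, and its log2 fold change of 0.16 was not called (adjusted p = 0.132, edgeR). Acaa2 had 665 ± 109 RPKM in WT liver and 116 ± 5.21 RPKM in WT muscle, and Hadh had 225 ± 17.9 RPKM in WT liver and 95.7 ± 2.51 RPKM in WT muscle. Acads had 84.0 ± 5.70 RPKM in WT liver and 42.7 ± 0.522 RPKM in WT muscle. These 3 genes were called higher in WT liver. Acadvl had 213 ± 23.7 RPKM in WT liver and 175 ± 1.66 RPKM in WT muscle. Hadha had 94.6 ± 8.20 RPKM in WT liver and 111 ± 3.92 RPKM in WT muscle, and Hadhb had 89.6 ± 9.23 RPKM in WT liver and 169 ± 7.71 RPKM in WT muscle. The transferase forms split by tissue. Cpt1a had 81.8 ± 12.0 RPKM in WT liver and 3.09 ± 0.524 RPKM in WT muscle, whereas Cpt1b had 4.57 ± 1.95 RPKM in WT liver and 113 ± 2.89 RPKM in WT muscle. Cpt1a was 91.1 to 97.4% of the pair per exon length in the 6 livers and 2.31 to 3.78% in the 6 muscles.

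**Figure D4:**
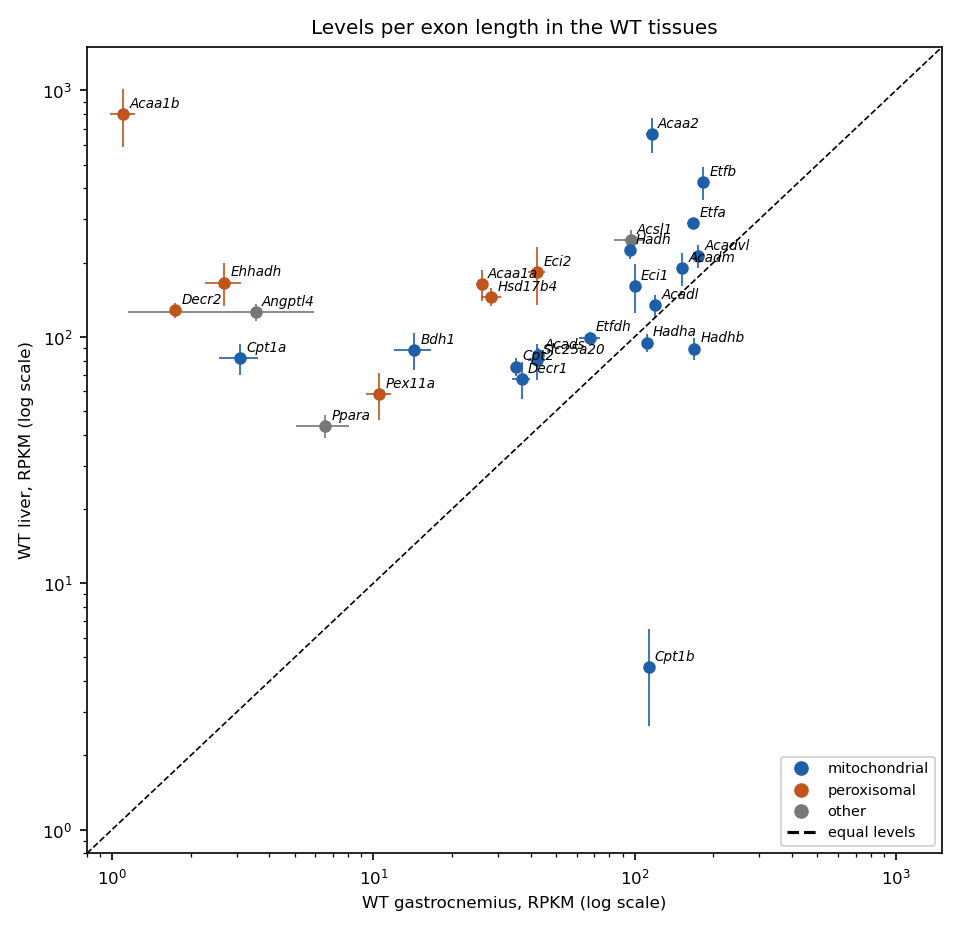
Mean RPKM in WT liver (vertical) against WT gastrocnemius (horizontal) on log axes for the 28 members with enough counts in muscle, with SD bars (n = 3) and the line of equal levels. The mitochondrial genes other than Cpt1a, Cpt1b, Bdh1 and Acaa2 lie within 1.24 of the line on the log2 scale, Cpt1b lies far to its right, and the peroxisomal genes lie above it, Acaa1b farthest.

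The peroxisomal genes had far higher levels in liver. Acaa1b had 802 ± 212 RPKM in WT liver and 1.10 ± 0.119 RPKM in WT muscle. The other gene of the pair, Acaa1a, had 163 ± 23.9 RPKM in WT liver and 26.0 ± 1.35 RPKM in WT muscle. Acaa1b was thus the main thiolase transcript of the pair in liver and 3.63 to 5.09% of it in the muscles. Decr2 had 128 ± 8.61 RPKM in WT liver and 1.74 ± 0.0515 RPKM in WT muscle, and Ehhadh had 166 ± 33.1 RPKM in WT liver and 2.69 ± 0.426 RPKM in WT muscle. Hsd17b4 differed less, at 145 ± 12.3 RPKM in WT liver and 28.3 ± 2.42 RPKM in WT muscle. Ppara had 43.5 ± 4.72 RPKM in WT liver and 6.54 ± 1.5 RPKM in WT muscle. Cyp4a10 had 59002 counts in WT liver and 2 in WT muscle, a ratio of 34212 after scaling (95% counting interval 9471 to 282498). Fabp1, with the highest RPKM of all members in WT liver (6892 ± 2899), had 225123 counts there and 9 in WT muscle. Of these muscle counts, all of Cyp4a10 and 8 of Fabp1 came from WT 6. That library also had 123 counts of the hepatocyte marker Alb, against 7 in WT 8 and 8 in WT 9, and the source of these counts was not tested. Cyp4a12a had 65 counts in WT liver (11, 3 and 51 in WT 6, WT 8 and WT 9) and 0 in WT muscle. With 0 read as a floor of 3 counts over the group, the pooled WT livers were at least 25.1-fold higher. That ratio rested mostly on WT 9 and does not hold for each liver. These intervals and floors cover counting error only.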

How the data were processed

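The authors deposited raw counts, 1 file per library: per the file headers, featureCounts 1.5.2 counted read pairs over the exons of each gene symbol (UCSC mm10), with no strand option, primary alignments only, and with a fragment counted for every gene it overlaps. The submitters' processing notes name STAR 2.4.0 as the aligner; per the submitters' processing notes the build was mm10. Without strand, reads of overlapping genes on opposite strands cannot be told apart; among the members this touches 2.01% of the exon bases of Hadha.

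Genotype was tested within each tissue in R 4.3.3 with edgeR 4.0.16 (the quasi-likelihood test after TMM scaling and filterByExpr, p-values adjusted by Benjamini and Hochberg over every gene tested, called under 0.05). The difference between tissues and the WT tissues were tested in a fit of all 12 libraries. That fit estimates the replicate spread of a gene from both tissues together, though it differed between them, so its p-values are less certain. CPM uses TMM-scaled library sizes within a tissue, and RPKM the 12-library factors and the exon length of the files. SE is the log2 fold change over the square root of F. "Fully apart" means that every library of a group lies beyond every library of the other. Members with under 30 summed counts in both muscle groups got no difference between tissues.

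A title number and age shared by a liver and a muscle library were read as the same animal. Deviations of same-animal libraries from their group means correlated at -1.91e-05 to 0.0957 over 12413 genes. Those of different animals of a genotype correlated at -0.104 to 0.0937. These ranges overlap, so they do not check the pairing. Chi-squared per degree of freedom between replicate libraries was 41.7 to 118 in liver and 8.07 to 17.8 in gastrocnemius. The replicate libraries thus differed by more than sampling noise, and more so in liver. Where the labels do not say that animals are from separate litters, p-values measure the spread between these animals only.

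The members and all lists were chosen with earlier results of these data known. All 33 members are accounted for. From other lists the text names called genes (up to 4) or at most 2 with the smallest p, and Pdk4, Fgf21, Plin2, Cd36, Dbp, Tef and Nr1d1 by choice; results of some listed genes are not reported here. Alternatives were RLE factors, DESeq2 1.42.0, limma-voom (limma 3.58.1), no filter, at least 1 CPM in 3 libraries, age, a 12-library fit, the animal as replicate block, the WT libraries alone, and leaving out each library or animal. The fits were tested on simulated data, where a larger share of the calls in the single-tissue fits was false than the adjusted p threshold states, so calls close to that threshold are less certain than their adjusted p.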

Additional observations from a re-analysis of the deposited data

Results flagged for a closer look

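Decr2 was flagged because its libraries lay fully apart in opposite directions in the 2 tissues. Every R135W liver was below every WT liver, while every R135W muscle was above every WT muscle. In muscle its log2 fold change was 0.16 and was not called (adjusted p = 0.702, edgeR), so an effect there was not shown. Fold changes above 0 in muscle were seen in 7 of the 28 members. The log2 fold change in liver minus that in gastrocnemius was -0.60, which did not pass at an adjusted p of 0.146 by edgeR.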

How the results depend on the processing

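Depth was enough that the spread between animals, not counting, set the error of most members; 3 animals per genotype and the lack of a recorded time of day limit what the comparisons can show. In liver the number of members called, 1 by edgeR with TMM, was 11 with DESeq2, 3 without a filter on low counts, 0 with age as a covariate and 12 in the fit of all 12 libraries, and 0 to 1 when a library was left out. All genes called, 457, were 781 with DESeq2, 274 with age, 1057 in the 12-library fit and 84 to 285 without a library. The median of the mitochondrial members was -0.36 to -0.24 without a library and that of the peroxisomal and microsomal members -0.59 to -0.32. In gastrocnemius the members called were 0 to 1, and all genes called, 121, were 274 with DESeq2, 20 in the 12-library fit and 3 to 106 without a library. For the difference between tissues DESeq2 called 4 members, and all genes called, 20, were 184 with DESeq2, 7 with limma-voom, 16 with the animal as replicate block and 1 to 7 without an animal. The replicate block, a paired fit, left 0 members called for that difference and took the call of Acadvl (adjusted p = 0.0601, edgeR) between the WT tissues. Between the WT tissues no other count of called genes moved by over 1.5 times. Why these counts moved was not tested; fewer samples were fitted where a library was left out.

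Among single genes, 26 values changed sign, nearly all of genes near 0. In liver, Bdh1 ran from -0.22 to 0.03 and Cyp4a12a from -1.45 to 2.92 over the fits without a library. In gastrocnemius Acaa2, at -0.00, was 0.00 without a filter and with at least 1 CPM in 3 libraries, 0.01 with age and 0.01 in the 12-library fit, and it ran from -0.04 to 0.05 without a library. The others there were Cpt1a (-0.15 to 0.21), Acadm (-0.06 to 0.05), Acads (-0.03 to 0.00), Hadha (-0.01 to 0.06), Decr1 (-0.06 to 0.04), Eci1 (-0.02 to 0.09), Ehhadh (-0.16 to 0.06) and Pex11a (-0.14 to 0.01). For the difference between tissues they were Acadvl (-0.15 to 0.00), Bdh1 (-0.00 to 0.46) and Angptl4 (-0.88 to 0.04), without an animal.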
